A study of Mus musculus with 23 samples.

Results

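The genes of iron uptake and storage in this set were the plasma iron carrier Trf, the transferrin receptors Tfrc and Tfr2, the divalent metal transporter Slc11a2, the ferritin subunits Fth1 and Ftl1, the iron exporter Slc40a1, the iron hormone Hamp, and the iron regulatory proteins Aco1 and Ireb2. The members were found by symbol in the probe annotation of the platform, with names updated through Entrez identifiers. Of the 10 genes 9 had a probe, among 14776 genes with a probe on the array, and with 2 probes for Tfr2 this gave 10 of the 24048 probes. Ireb2 had none and is not described. The set was chosen by measured values, above all the differences of Tfrc and Slc40a1 between OPP and control hearts, so the heart values of OPP against control are given below as a description with no test. Hamp2, the second mouse hepcidin gene, was no member and is given beside Hamp. In GRCm38.p6, Tfrc lies at chr16:32608896-32632794, Slc40a1 at chr1:45908070-45926532, Hamp at chr7:30942368-30944029 and Hamp2 at chr7:30922372-30924181.

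Expression was measured on 23 Illumina MouseRef-8 arrays, 1 RNA sample each, from 3 OPP and 4 control livers, 4 OPP and 4 control spleens, and 4 OPP and 4 control hearts. All mice were male BALB/c, 12 weeks old, kept on a normal diet and fasted overnight before the organs were taken. For 6 weeks the OPP mice were given oil palm phenolics, a water-soluble extract of the oil palm fruit, to drink at 1500 ppm in gallic acid equivalents, in place of the distilled water of the control mice. The groups lived in separate cages, so that cage and drink cannot be told apart, and organs are not tied to individual mice by the labels. The authors arrayed the RNA of highest integrity and removed outlying samples before deposit.

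Each array showed its labelled organ. Of 8 hepatocyte markers, 6 were detected on every liver array, and all 5 B and T cell markers were detected on every spleen array. Of 6 cardiomyocyte markers, 5 were detected on every heart array, and Myh6, Tnnt2, Myl2, Pln and Ryr2 were on no liver or spleen array. Between 5349 and 7664 probes were detected on a liver array, 8318 to 8957 on a spleen array and 9022 to 9785 on a heart array. The 5349 were on OPP liver 3, which also had the highest background intensity of the livers. The summed neutrophil marker intensity was 1176 to 24963 on the OPP livers and 3041, 1456, 80605 and 46979 on control livers 1 to 4, so that control livers 3 and 4 stood apart. The differences of the members and Hamp2 between OPP and control livers, and the liver comparisons that these arrays changed, are therefore also given without them. In these organ samples, a change in the number of cells of a type and a change of RNA per cell cannot be told apart.

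Iron travels in plasma bound to transferrin and enters cells when the transferrin receptor is taken into endosomes, where Slc11a2 moves the metal into the cytosol. Iron that is not used is held inside ferritin, a shell of heavy and light subunits, and leaves the cell through ferroportin, the product of Slc40a1. Hepcidin, made by hepatocytes and encoded by Hamp, binds ferroportin and causes its removal from the membrane. Within cells, iron regulatory proteins bind stem loops in mRNA. They stabilise the Tfrc message and hold back ferritin translation when iron is low, so that ferritin protein can change while its mRNA does not.

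The upstream sequences of Hamp and Hamp2 are shown because Hamp had the widest range of any member in the liver. They are the 250 bases before the start of each gene in RefSeq (GRCm38.p6, minus strand), at chr7:30944030-30944279 for Hamp and chr7:30924182-30924431 for Hamp2. Capitals mark GGCGCC, the core of the element through which bone morphogenetic protein signals act on hepcidin, and TTCNNNGAA, the form bound by STAT3 downstream of interleukin 6.
Hamp: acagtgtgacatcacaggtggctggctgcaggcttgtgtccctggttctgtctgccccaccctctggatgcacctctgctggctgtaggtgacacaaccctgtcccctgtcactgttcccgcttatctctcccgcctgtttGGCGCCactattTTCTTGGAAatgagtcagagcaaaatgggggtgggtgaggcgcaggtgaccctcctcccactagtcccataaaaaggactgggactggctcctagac
Hamp2: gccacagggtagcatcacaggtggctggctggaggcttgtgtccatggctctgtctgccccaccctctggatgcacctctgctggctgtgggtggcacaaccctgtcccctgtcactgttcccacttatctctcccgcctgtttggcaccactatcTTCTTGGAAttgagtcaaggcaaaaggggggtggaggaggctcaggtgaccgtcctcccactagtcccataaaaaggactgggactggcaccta
Over 247 aligned bases the stretches were 91.9% identical. The substitution G145A, counted from the 5′ end of the Hamp stretch with the Hamp base first, leaves Hamp2 without a GGCGCC match in this window. TTCNNNGAA was found in both, beginning 97 bases before the start of Hamp and 94 before that of Hamp2. On either strand, GGCGCC was present in 9.59% and TTCNNNGAA in 7.02% of 32851 windows of this length upstream of RefSeq genes, and the searched forms do not overlap each other here. A match describes the letters and is not evidence of binding.

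Across control organs, the liver led in Trf, Tfr2 and Aco1, the spleen in Tfrc, Ftl1, Slc40a1 and Slc11a2, and the ferritin heavy chain was lower in the liver than in the heart. The 12 control arrays were normalised together and compared by limma with the Benjamini-Hochberg adjustment over 10964 probes, and values are log2 normalised intensities, mean ± SD of 4 arrays. Organ differences were wide in general. Between liver and heart 7 of the 9 member genes passed the adjusted threshold of 0.05, 5 higher and 2 lower in the liver, where 77.3% of all probes passed (32.7% higher, 44.6% lower). Between liver and spleen 8 members passed, 4 higher and 4 lower, with 81.5% of probes (36.6% higher, 44.8% lower). Between heart and spleen 7 passed, 1 higher and 6 lower in the heart, with 77.2% of probes (39.2% higher, 38% lower). The shares of members called were near those of the array as a whole. The control livers had a background intensity of 151.1 to 165.4, against 56.5 to 60.9 for control hearts and 75.2 to 84.3 for control spleens. With the OPP arrays the ranges were 151.1 to 351.5 in livers, 49.6 to 60.9 in hearts and 63.7 to 84.3 in spleens. The 351.5 was that of OPP liver 3, and OPP livers 1 and 2 had 161.65 and 174.2. The labels name no batch of arrays, and a technical difference between the arrays of the organs cannot be told apart from the organ. With the 11 OPP arrays in place of the controls, all 7, 8 and 7 called members passed again with the same sign. Without control livers 3 and 4, 9 members passed between liver and heart and 8 between liver and spleen, and 0 of the 9 changed sign in either.

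**Figure D1:**
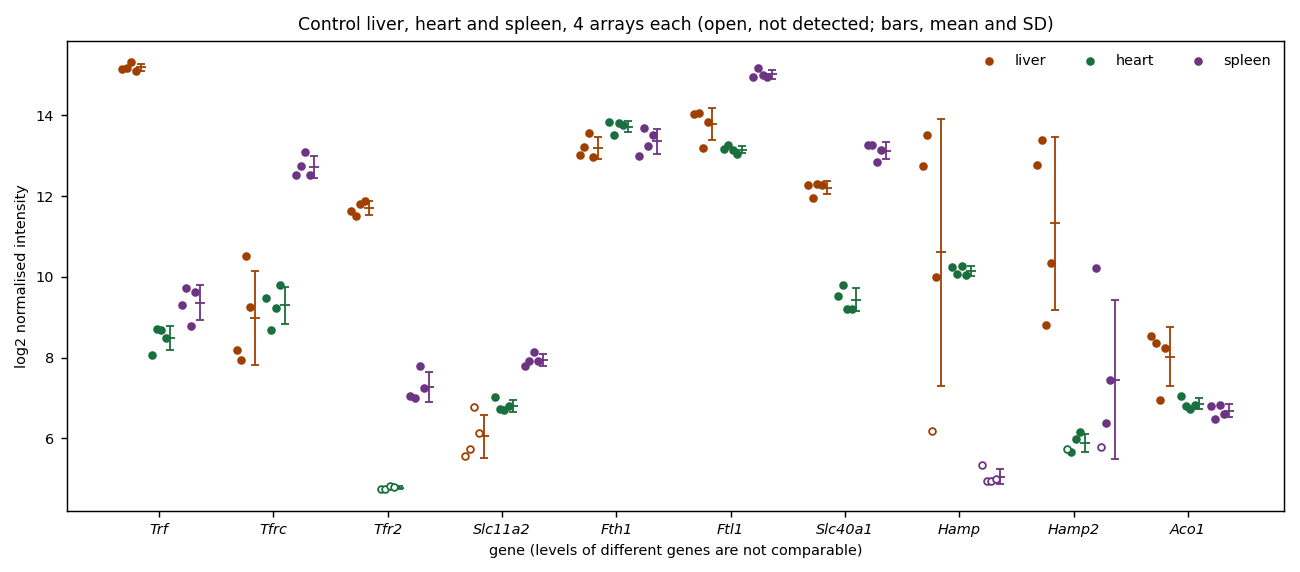
Log2 normalised intensity of each iron gene on the 12 control arrays, 4 per organ, normalised together; filled points were detected, open points were not, and bars give the mean and SD. Trf and Tfr2 sit highest in the liver and Tfrc, Ftl1 and Slc40a1 in the spleen, while control liver 3 has Hamp at 6.19 and control liver 4 at 9.98.

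Trf, transcribed mainly by hepatocytes, averaged 15.19 ± 0.09 in control livers, against 8.49 ± 0.30 in hearts and 9.36 ± 0.43 in spleens. These are 104-fold and 57.0-fold differences from the liver (adjusted p = 3.05e-12 and 1.39e-11 by limma), and Trf was also lower in hearts than in spleens, with a log2 difference of -0.86 (adjusted p = 0.00126). Tfr2, which works as an iron sensor in hepatocytes, averaged 11.71 ± 0.16 in livers, was not detected on any heart array, and averaged 7.27 ± 0.37 in spleens. It was at least 61.8-fold higher in the liver than in the heart and 21.6-fold higher than in the spleen (adjusted p = 3.08e-11). Such a bound sets the liver mean against a floor averaged over the heart arrays, which on each array is the lowest signal of any detected probe or, where higher, the signal of the gene itself. A dimmer Tfr2 probe was detected only in the liver, and there the bounds were 13.3-fold against heart and 11.6-fold against spleen.

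Tfrc, the receptor through which red cell precursors and other dividing cells take up transferrin, read 8.20, 7.95, 10.51 and 9.24 on control livers 1 to 4, against 9.47, 8.68, 9.23 and 9.79 on control hearts and 12.53, 12.74, 13.09 and 12.52 on control spleens. The spleen values lay above every other array. The log2 difference was -3.75 (SE 0.45, adjusted p = 4.52e-06) for liver against spleen and -3.43 (SE 0.45, adjusted p = 1.28e-05) for heart against spleen. Liver and heart differed by -0.32 (SE 0.45, adjusted p = 0.535), and without control livers 3 and 4 by -1.20 (SE 0.25, adjusted p = 0.00108). On the OPP arrays that difference was 0.39 (adjusted p = 0.125), but Tfrc differed by -1.44 between OPP and control hearts, so these arrays do not repeat the control comparison. Control livers 3 and 4 were the highest control livers in Tfrc and were left out here after the data were seen. Nothing is read from the p-value without them. Over all control arrays the order of liver and heart is not settled. Of 12 erythroid markers on the array, 10 were detected on every spleen array and 2 on every liver array.

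Slc11a2, the endosomal iron transporter, was not detected in any liver, averaged 6.81 ± 0.15 in hearts and 7.94 ± 0.14 in spleens, and was 2.18-fold lower in hearts than in spleens (adjusted p = 0.000361). Against the liver, the spleen was at least 2.26-fold and the heart at least 1.03-fold higher. Slc40a1, the only known iron exporter and abundant in macrophages that recycle red cells, averaged 12.20 ± 0.16 in livers, 9.43 ± 0.28 in hearts and 13.12 ± 0.20 in spleens. Each pair of organs differed, liver over heart by 6.84-fold (adjusted p = 1.21e-09), with liver below spleen by 1.89-fold (adjusted p = 6.22e-05) and heart below spleen by 12.96-fold (adjusted p = 1.22e-10).

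Of the ferritin subunits, Ftl1 was highest in the spleen and Fth1 was lower in the liver than in the heart. Ftl1, the light chain, averaged 13.78 ± 0.40 in livers, 13.15 ± 0.09 in hearts and 15.02 ± 0.11 in spleens, and was lower than in spleen by 1.24 in livers (adjusted p = 7.42e-06) and by 1.87 in hearts (adjusted p = 1.71e-07) on the log2 scale. Its liver over heart difference of 0.63 (adjusted p = 0.00259) was -0.016 (adjusted p = 0.934) when the arrays were scaled to their medians instead of quantile normalised. Fth1, the heavy chain with the ferroxidase centre, averaged 13.19 ± 0.27 in livers, 13.72 ± 0.14 in hearts and 13.35 ± 0.31 in spleens, and of the 3 pairs liver against heart passed the threshold, with a difference of -0.53 (adjusted p = 0.00932). With median scaling that difference was -1.04, and liver against spleen, at -0.16 (adjusted p = 0.367) as reported, was -0.60 (adjusted p = 0.0116). On the OPP arrays Fth1 was also higher in heart than in spleen, by 0.51 (adjusted p = 0.00099). Both genes have many processed pseudogenes in the mouse, and the probe may read more than 1 copy. Aco1, which serves as cytosolic aconitase or as an iron regulatory protein, averaged 8.03 ± 0.72 in livers, 6.86 ± 0.14 in hearts and 6.68 ± 0.16 in spleens. Liver exceeded heart by 1.17 (adjusted p = 0.00166) and spleen by 1.34 (adjusted p = 0.000538), and with median scaling these were 0.45 (adjusted p = 0.206) and 0.65 (adjusted p = 0.0695).

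Hamp was detected in the heart as well as in the liver. It read 12.74, 13.50, 6.19 and 9.98 on control livers 1 to 4, against 10.25, 10.06, 10.28 and 10.03 on control hearts, and was not detected on any spleen array. Heart was at least 18.4-fold above spleen (adjusted p = 0.00129 in the fit) and liver at least 25.2-fold (adjusted p = 0.000609), a mean that includes control liver 3, where Hamp was not detected. Without control livers 3 and 4 the liver was at least 147-fold above spleen. Liver and heart differed by 0.45 (SE 1.15, adjusted p = 0.736) over all control arrays, by 2.98 (SE 0.20, adjusted p = 5.93e-08) without control livers 3 and 4, and by 2.86 (SE 0.30, adjusted p = 1.94e-06) on the OPP arrays. The values without control livers 3 and 4 rest on 2 livers and leave out the lowest Hamp values. That choice was made here after the data were seen, so nothing is read from its p-value. Of 8 hepatocyte markers, Alb, Tat and Fgb were detected on no heart array and 3 were detected on every heart array. Hamp2 averaged 11.33 ± 2.14 in livers, 5.89 ± 0.22 in hearts and 7.46 ± 1.97 in spleens, and its liver over heart difference was 5.44 (SE 1.02, adjusted p = 0.000273). Hamp and Hamp2 are close copies, but their probes read apart. On control spleen 1 Hamp2 was at 10.22 where Hamp, at 5.34, was not detected, and the control hearts had Hamp2 between 5.66 and 6.15 with Hamp above 10.

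In the liver, no member passed the threshold between OPP and control. At the brightest probe of each, the 8 members tested had a median log2 difference of 0.06, against -0.03 over 6434 probes. At these probes 0 members had an unadjusted p under 0.01 or 0.05. Over all probes 0% passed the adjusted threshold, 2.92% the unadjusted threshold of 0.01 and 11.2% that of 0.05. Slc11a2 was not detected in any liver and was not tested. The smallest adjusted p at these probes was 0.494, for Fth1. The dimmer Tfr2 probe had an unadjusted p of 0.026 and an adjusted p of 0.397 by limma. The two-sided exact permutation test over these arrays cannot give a p below 0.0286.

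Hamp had the widest spread in the liver. It read 13.10, 12.97 and 12.77 on OPP livers 1 to 3 and 13.01, 13.60, 6.41 and 10.20 on control livers 1 to 4. All 3 OPP livers and control livers 1 and 2 were high, control liver 4 was lower, and control liver 3 was at a level where the probe was not detected. The log2 difference was 2.14 (SE 1.47, adjusted p = 0.626 by limma, exact permutation p = 0.40), and it was -0.35 (SE 0.19, adjusted p = 0.566) without control livers 3 and 4. Hamp2 read 13.15, 10.69 and 12.15 on the OPP livers and 13.03, 13.52, 8.89 and 10.59 on the control livers, with a difference of 0.49 (SE 1.07, adjusted p = 0.89), and -1.28 (SE 0.56, adjusted p = 0.487) without control livers 3 and 4. Both hepcidin genes were thus low on control livers 3 and 4, and Hamp2 was also low on OPP liver 2, where Hamp was not.

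Tfrc, the uptake receptor, was high on the same arrays. It read 7.88, 8.40 and 8.46 on OPP livers and 8.23, 7.96, 10.77 and 9.38 on control livers, so that only control livers 3 and 4 were above 9. The difference was -0.84 (SE 0.60, adjusted p = 0.634, exact permutation p = 0.40), and 0.15 (SE 0.22, adjusted p = 0.849) without both. Aco1 read 8.54, 8.82 and 8.50 on OPP livers and 8.60, 8.42, 7.01 and 8.27 on control livers, and Ftl1 read 14.13, 13.90 and 13.93 against 14.14, 14.18, 13.36 and 13.96. Control liver 3 was the lowest array for both. Their differences were 0.55 (SE 0.35) and 0.08 (SE 0.20), and 0.12 and -0.16 without control livers 3 and 4.

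The summed markers of neutrophils and macrophages were highest on control livers 3 and 4, and those of dividing cells on control liver 3 alone. The granule protein gene Ltf, whose product itself binds iron, read 6.97, 7.95 and 5.46 on OPP livers and 6.88, 6.18, 12.42 and 10.08 on control livers. The precursor enzyme gene Mpo read 6.93, 8.40 and 5.16 on OPP livers and 5.90, 6.21, 13.25 and 10.96 on control livers. Neutrophil markers were highest on control livers 3 and 4, the arrays with the lowest Hamp and highest Tfrc. On OPP liver 2, the next highest with a neutrophil sum of 24963, Hamp was not low, at 12.97. The summed intensity of the macrophage markers was 5566 to 9601 on OPP livers, 4244 and 5549 on control livers 2 and 1, and 12695 and 12474 on control livers 3 and 4. Summed proliferation markers were 655 to 818 on OPP livers, 1582 on control liver 3, with 5 of 14 detected, and 586 to 740 on the other control livers. Erythroid markers did not move as 1 group. Their summed intensity was 25976 to 31620 on OPP livers, 15216 and 21334 on control livers 1 and 2, and 45158 and 39953 on control livers 3 and 4, while Car1, carbonic anhydrase of red cells, read 8.87, 8.33 and 8.74 on OPP livers and 8.39, 8.72, 6.43 and 6.49 on control livers 1 to 4. Of 12 erythroid markers, Rhag, Rhd, Gata1, Ermap, Xk and Epb4.2 were detected on no liver array. Alb was similar, between 9.69 and 10.69 on OPP livers and 9.85 and 10.30 on control livers. The part of any of these cells in the Hamp and Tfrc values was not tested.

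**Figure D2:**
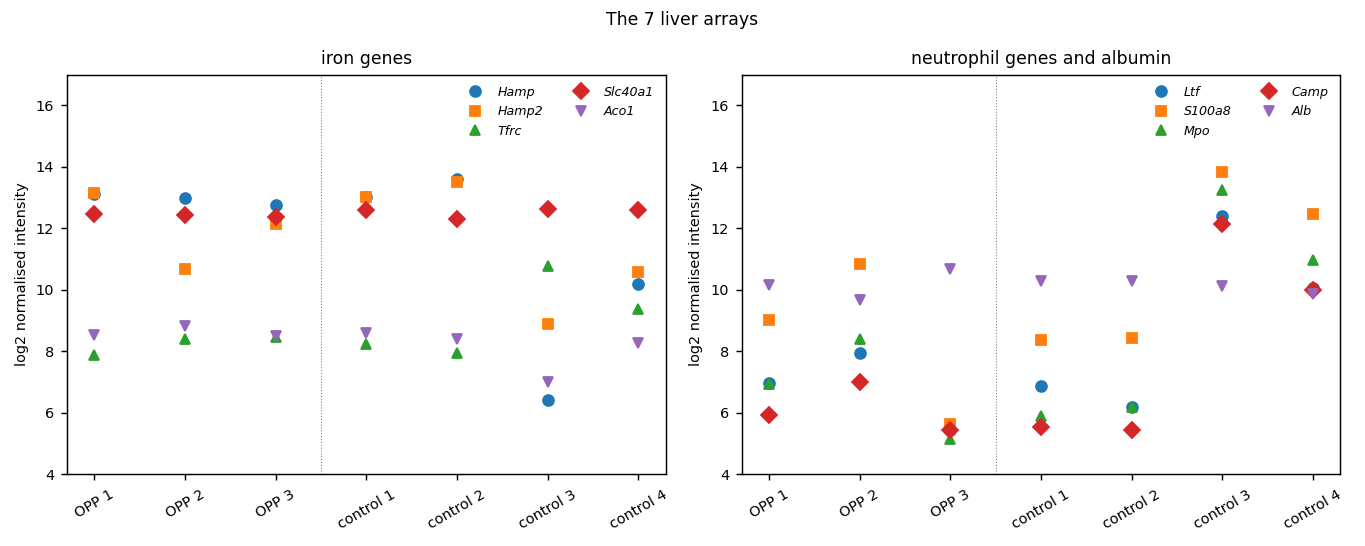
Log2 normalised intensity of iron genes (left) and of neutrophil genes with albumin (right) on each of the 7 liver arrays, OPP at the left of the dotted line and control at the right. On control livers 3 and 4 Hamp reads 6.41 and 10.20 and Tfrc 10.77 and 9.38, where the neutrophil genes Ltf, S100a8, Mpo and Camp are highest.

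The other liver members varied little. Fth1 read 13.67, 13.89 and 13.48 on OPP livers and 13.23, 13.37, 13.68 and 13.17 on control livers, a difference of 0.32 (SE 0.16, exact permutation p = 0.14) with overlapping groups, and 0.39 (SE 0.15) without control livers 3 and 4. Slc40a1 read 12.46, 12.43 and 12.37 on OPP livers and 12.60, 12.30, 12.61 and 12.60 on control livers, a difference of -0.11 (SE 0.12), and -0.03 without control livers 3 and 4. Trf lay between 15.50 and 15.56 on OPP livers and between 15.40 and 15.71 on control livers, a difference of -0.02 (SE 0.11), and 0.01 without the same arrays. Tfr2 differed by 0.04 (SE 0.14) at its brighter probe, and by 0.17 without them. At its dimmer probe Tfr2 read 10.11, 10.10 and 10.03 on OPP livers and 9.70, 9.48, 10.01 and 9.40 on control livers, so the groups did not overlap, as for 12.4% of probes tested, and the difference of 0.44 (SE 0.16) had an adjusted p of 0.397 by limma, and was 0.49 (SE 0.15, adjusted p = 0.344) without control livers 3 and 4.

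In the spleen no member passed the threshold between OPP and control. All 8 members tested had overlapping groups, 0 of them had an unadjusted p under 0.01 or 0.05, and the largest log2 difference in size was 0.18. Over 8582 probes, 0% passed the adjusted threshold, 1.69% had an unadjusted p under 0.01, 6.91% one under 0.05 and 3.6% had groups that did not overlap. The median difference of the members was -0.01, against -0.0022 over all probes. Tfrc read 12.92, 12.74, 12.85 and 12.37 on OPP spleens and 12.39, 12.63, 13.04 and 12.38 on control spleens, a difference of 0.11 (SE 0.17, adjusted p = 0.975). Slc40a1 read 13.20, 12.88, 13.28 and 13.33 on OPP spleens and 13.26, 13.28, 12.74 and 13.08 on control spleens, a difference of 0.08 (SE 0.14, adjusted p = 0.975). Both the receptor and the exporter overlapped between the spleen groups. Ftl1 read 15.13, 14.86, 14.93 and 14.96 on OPP spleens and 14.93, 15.09, 14.98 and 14.95 on control spleens, a difference of -0.02 (SE 0.11). Fth1 differed by -0.01 (SE 0.19) and Tfr2 by -0.18 (SE 0.21). Hamp was detected on no spleen array, and Hamp2 read 5.96 to 7.54 on OPP spleens, 10.23 on control spleen 1 and 5.78 to 7.66 on the other control spleens.

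Markers of neutrophils were higher in OPP spleens before adjustment. Of 10 neutrophil markers tested, 9 were higher at an unadjusted p under 0.05, where 6.91% of all probes passed in either direction. After adjustment 0 passed, and the median log2 difference was 1.04. Ltf, Mpo, Camp, Ngp and Lcn2 all read highest on OPP spleen 2 and lowest on control spleen 4. S100a8 and S100a9 were also lowest on control spleen 4, but highest on OPP spleens 1 and 3. These markers moved together over the spleens, so the 9 cannot be counted as separate observations. The summed intensity was 92584 to 148701 on OPP spleens and 35143 to 106065 on control spleens. The erythroid sum was 102896 to 112473 on OPP spleens and 92587 to 118688 on control spleens. The macrophage sum was 18493 to 24196 on OPP spleens and 19749 to 28467 on control spleens.

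In the heart the member that set the groups apart was Tfrc. It read 8.05, 8.0, 7.31 and 7.12 on OPP hearts 1 to 4, against 9.23, 8.48, 8.99 and 9.54 on control hearts 1 to 4. Every OPP heart was below every control heart. The log2 difference was -1.44 (SE 0.25), which is 2.71-fold lower with OPP, and it was the third lowest of 9172 probes tested. Among the 8 members tested it was the 1 whose groups did not overlap, where 7.97% of all probes had such groups, 4.51% lower and 3.46% higher. These values chose the set, so nothing is read from that rank or that count. Over all probes 0% passed the adjusted threshold as reported, and 554 of 9172 passed when the arrays were scaled to their medians.

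A short stretch of the Tfrc start region is shown because the gene is a known target of hypoxia-inducible factor. The 30 bases lie at chr16:32608882-32608911 on the plus strand of GRCm38.p6, across the first RefSeq start, and capitals mark ACGTG, the core of the element that the factor binds.
Tfrc: ctcggtaggtgtACGTGcggaaggaagtga
On either strand, ACGTG was present in the 250 bases upstream of 16.6% of RefSeq starts. Among the 7 member genes with a window, it was found for Tfr2 and for Tfrc, there 228 bases before the second start. The window upstream of the first Tfrc start, which the match lies across, held 0 matches. The arrays hold no measure of the factor.

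Slc40a1 stood the other way in the heart. It read 9.73, 9.50, 9.85 and 9.84 on OPP hearts and 9.28, 9.53, 8.98 and 8.96 on control hearts, so the groups met only at OPP heart 2 and control heart 2. The difference was 0.54 (SE 0.13), or 1.46-fold higher with OPP. Aco1 read 7.0, 7.0, 6.76 and 7.12 on OPP hearts and 6.88, 6.63, 6.56 and 6.65 on control hearts, a difference of 0.29 (SE 0.11). Fth1 read 13.50, 13.54, 13.63 and 13.63 on OPP hearts and 13.55, 13.28, 13.54 and 13.48 on control hearts, and Ftl1 read 12.98, 13.05, 13.31 and 13.17 on OPP hearts and 12.997, 13.06, 12.97 and 12.90 on control hearts. Both ferritin genes overlapped between the groups. They differed by 0.11 (SE 0.07) and 0.15 (SE 0.07), and by -0.013 and -0.0022 when the arrays were scaled to their medians, under which the median of all probes lay at -0.12. Relative to that median they were 0.11 and 0.12 there, Tfrc was -1.45 and Slc40a1 was 0.53.

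Hamp in the heart read 10.24, 10.09, 9.35 and 8.63 on OPP hearts and 9.997, 9.80, 10.02 and 9.78 on control hearts. OPP hearts 3 and 4 were below every control heart, OPP hearts 1 and 2 above every control heart, and the difference was -0.32 (SE 0.28). The summed intensity of hepatocyte markers was 563, 1494, 735 and 372 on OPP hearts 1 to 4 and 490, 1257, 1086 and 975 on control hearts 1 to 4. Trf read 8.11, 9.28, 8.16 and 7.58 on OPP hearts and 7.89, 8.52, 8.49 and 8.29 on control hearts, a difference of -0.02 (SE 0.29). Slc11a2 differed by 0.15 (SE 0.11), and Tfr2 was detected on no heart array.

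Array background and cell markers are given beside these values. The background intensity was 49.6 to 54.2 on OPP hearts and 56.5 to 60.9 on control hearts. Summed proliferation markers were 533 to 569 on OPP hearts and 560 to 1173 on control hearts, with control heart 2 highest. Of 14 proliferation markers with a probe 3 were tested, all with a negative difference. Mcm5 differed by -0.58 (SE 0.22), Pcna by -0.36 (SE 0.12) and Mcm2 by -0.26 (SE 0.18). Mcm5 was lower on every OPP heart than on any control heart, as were 4.51% of all probes. B and T cell markers summed to 39 to 313 on OPP hearts, 931 on control heart 2 and 42 to 93 on the other control hearts. Control heart 2 had the lowest Tfrc of the control hearts, and without it the Tfrc difference was -1.64. Erythroid sums were 30694 to 33093 on OPP hearts and 30649 to 37607 on control hearts, and macrophage sums 2204 to 3644 on OPP hearts and 2129 to 2819 on control hearts. Of 10 neutrophil markers with a probe 6 were tested, all with a positive difference, at a median of 0.49 against 0.0036 over all probes. Ltf, Camp and Mmp9 were detected on 3 OPP hearts and on 1, 2 and 2 control hearts. They were tested only through the OPP group, which favours a positive sign, so nothing is read from the count. Neutrophil sums were 296 to 2404 on OPP hearts and 200 to 1537 on control hearts. Of 6 cardiomyocyte markers 5 had a positive difference. Among them Ryr2, detected on 3 OPP and 0 control hearts, was tested only through the OPP group. Myh6, the cardiac myosin heavy chain, was higher on every OPP heart than on any control heart, as were 3.46% of all probes. It differed by 0.25 (SE 0.06), Tnnt2 by 0.14 (SE 0.06), Actc1 by 0.04 (SE 0.06), Myl2 by 0.005 (SE 0.04) and Pln by -0.05 (SE 0.07). The part of any of these cells in the Tfrc and Slc40a1 values was not tested.

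**Figure D3:**
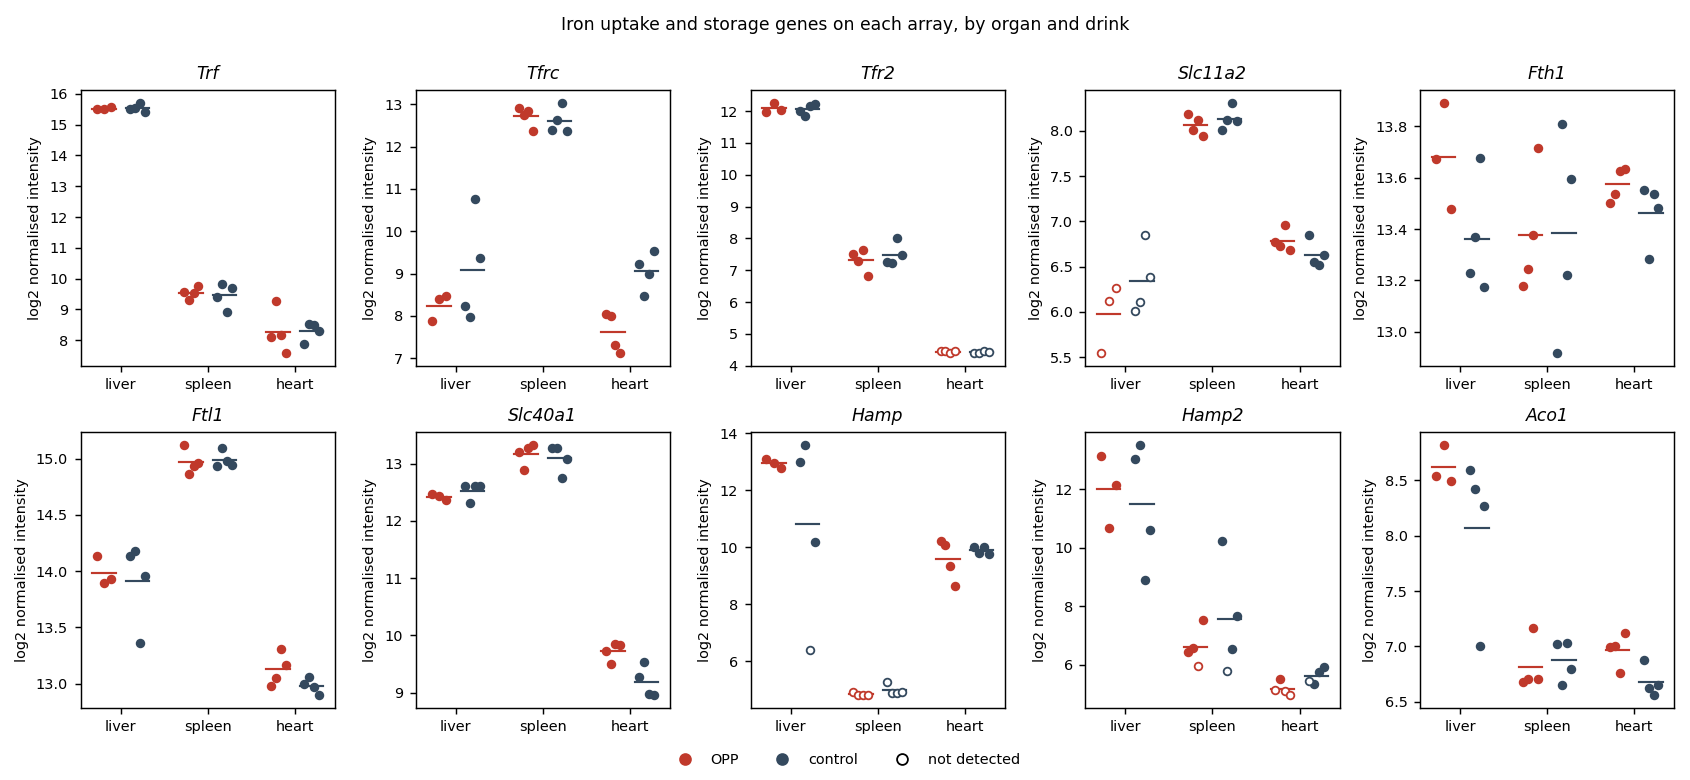
Log2 normalised intensity of each iron gene on the 23 arrays, normalised within each organ, with OPP in red at the left of control in dark blue; lines are group means and open points were not detected. In the heart all 4 OPP points of Tfrc lie between 7.12 and 8.05, below the control points at 8.48 to 9.54, and in the liver the spread of Hamp comes from 2 control arrays.

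The responses of liver and spleen were compared directly in a fit of all 23 arrays. The difference of the log2 responses, liver minus spleen, was 2.22 (SE 1.34, adjusted p = 0.501) for Hamp, -0.85 (SE 0.56, adjusted p = 0.54) for Tfrc, 0.58 (SE 0.33) for Aco1 and 0.38 (SE 0.21, adjusted p = 0.464) for Fth1. None of the 9 members passed, 0 of them had an unadjusted p under 0.05, and of 11212 probes 0.0803% passed the adjusted threshold and 13.2% the unadjusted one. Without control livers 3 and 4 the difference was -0.29 (SE 0.40) for Hamp, 0.04 (SE 0.36) for Tfrc, 0.16 (SE 0.21) for Aco1 and 0.46 (SE 0.22) for Fth1, 4 of the 9 members changed sign and the smallest adjusted p was 0.407. The heart and liver differences below include these arrays. For the heart only the values are given. The Tfrc response was lower than in the liver by -0.72 (SE 0.56) and than in the spleen by -1.57 (SE 0.53), and the Slc40a1 response was higher by 0.67 (SE 0.19) and 0.49 (SE 0.18).

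**Figure D4:**
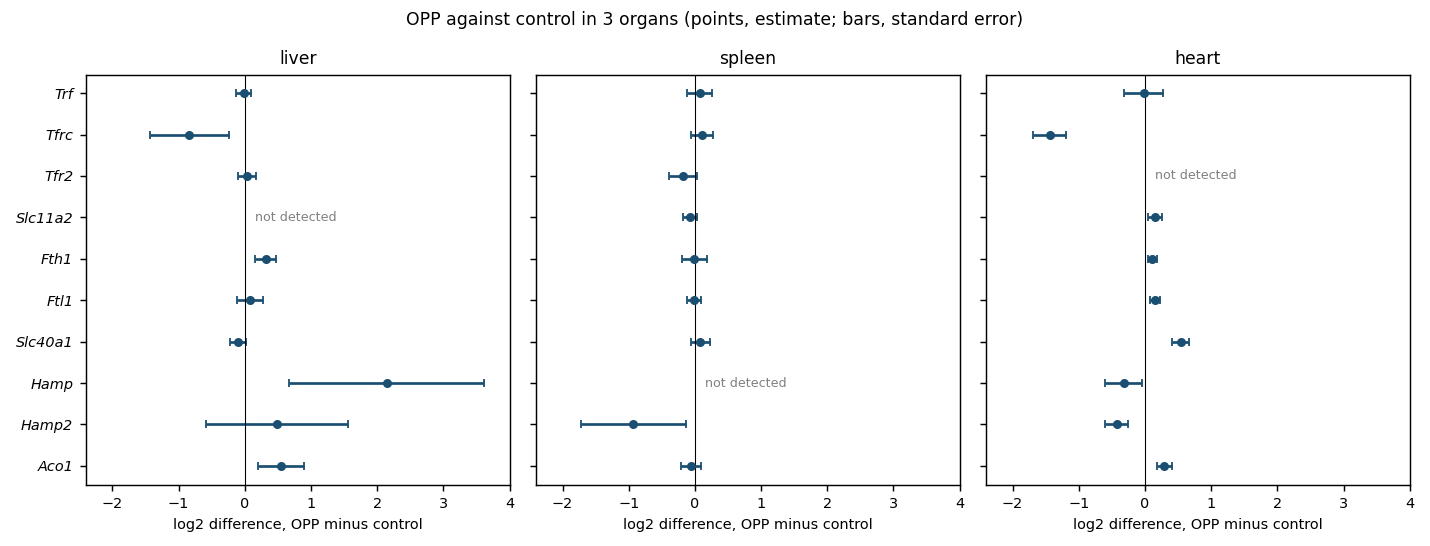
Log2 difference, OPP minus control, of each iron gene in liver, spleen and heart, with the standard error from limma as bars. The liver Hamp bar is the widest at an SE of 1.47, all spleen members sit within 0.18 of 0, with Hamp2 apart, and in the heart Tfrc lies at -1.44 and Slc40a1 at 0.54.

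Other genes of iron handling were followed in 4 lists, of iron and haem transport, hepcidin control, intracellular iron handling, and mitochondrial iron and iron-sulphur clusters, which hold 87 genes beside the members, 75 of them with a probe. The liver values of these genes include control livers 3 and 4 and are not given without them. In the liver 48 were tested, with 0 past the adjusted threshold or an unadjusted p of 0.01, where 2.92% of all probes were. At an unadjusted p of 0.05, where 11.2% were, stood the liver transcription factor Cebpa, at 0.55, the cysteine desulphurase Nfs1, at 0.40, and Smad4, which carries the bone morphogenetic protein signal, at -0.44 (adjusted p = 0.417, 0.419 and 0.40 by limma), 3 genes named after their values were seen. In the spleen 48 were tested, with 0 past the adjusted threshold, 1 at an unadjusted p of 0.01, where 1.69% of all probes were, and 5 higher and 1 lower at 0.05, where 6.91% were. The higher ones, named after their values were seen, were the neutrophil proteins Lcn2, at 1.298, and Ltf, at 1.21, the haemoglobin carrier Hp, at 1.12, Alas1, at 0.54, and Jak2, at 0.24 (adjusted p between 0.586 and 0.669). Lcn2 and Ltf are also in the neutrophil list. The gene at 0.01 was the metal transporter Slc39a8, at -0.40 (SE 0.12, adjusted p = 0.558), with means of 5.84 on OPP and 6.24 on control spleens. It was detected on 0 of 4 OPP spleens and 4 of 4 control spleens. It was thus tested only through the control group, where it was higher, and nothing is read from the detection counts. In the heart 55 were tested, of which 2 were higher and 4 lower with groups that did not overlap (3.46% and 4.51% of all probes). The lower ones were Alas1, the first enzyme of haem synthesis, at -0.46 (SE 0.12), the macrophage metal transporter Slc11a1 at -0.18 (SE 0.06), the biliverdin reductase Blvrb at -0.18 (SE 0.09), and Skp1a, a part of the ubiquitin ligase that removes iron regulatory protein, at -0.10 (SE 0.06). The higher ones were the hepcidin-inducing ligand Bmp6, at 0.33 (SE 0.12), and the iron-sulphur scaffold Iscu, at 0.11 (SE 0.05). Their median log2 difference was -0.03 in liver, -0.04 in spleen and 0.02 in heart, and over all probes it was -0.03, -0.0022 and 0.0036.

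Over the 8 hearts, the probes most like Tfrc by Pearson correlation were Fam114a1 (0.994), Lsm3 (0.987), Pcdhb17 (0.986), Laptm4b (0.976) and Mrpl19 (0.968), all lower with OPP, and within groups the correlations were between 0.87 and 0.988. Over the 7 livers, those most like Hamp were the sulphotransferase Sult2a8 (0.993), the glucuronosyltransferase Ugt2b1 (0.989), the NADPH oxidase Nox4 (0.988), the cytochrome P450 Cyp2d9 (0.985) and the alcohol dehydrogenase Adh4 (0.982). They share the low values of control livers 3 and 4, and their Spearman correlations ran from 0.607 for Sult2a8 to 0.964 for Nox4 and Cyp2d9. These are the closest of all probes tested in an organ and describe the arrays only.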

How the data were processed

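The authors scanned the arrays and exported a mean bead intensity for each probe with BeadStudio (1.5.1.3 in the submitters' processing notes). The deposited intensities were not normalised, and a detection p-value, deposited beside each, ranks the probe among negative controls. The deposited normalised intensities are each array's raw intensity on a straight line set within its organ by the authors, so they cannot be compared across organs. Probes were named from the platform annotation, and coordinates and sequences come from RefSeq (GRCm38.p6).

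Background was removed with limma's nec (limma 3.58.1 in R 4.3.3, offset 16), and arrays were quantile normalised within an organ, or together for comparisons between organs, then log2 transformed. A probe counted as detected at a detection p under 0.01 and was tested when detected on at least 3 arrays of a group. Groups were compared with limma (lmFit, eBayes with a trended variance), Benjamini-Hochberg adjusted over all probes tested at 0.05, and single liver and spleen genes also by the exact permutation test. The study's unadjusted threshold of 0.01 is given beside it. Steps were tested on simulated data. The number of arrays limits the precision, and p-values measure the spread between the arrays that the authors kept. Organs of the same mouse may be among them, and the organ comparisons treat all arrays as independent.

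The members and gene lists were chosen with earlier results of these data known. Every member is described at its brightest probe, and Tfr2 at both. Of the other iron genes, those with an unadjusted p under 0.01 in liver or spleen, or with groups that did not overlap in heart, are named, at most 8 per organ. Those at an unadjusted p under 0.05 in liver and spleen were added after their values were seen. The most similar probes are the 5 of highest Pearson correlation. The alternatives were no background correction, median scaling, the authors' values, other filters, 1 fit of all organs, a replicate block, the methods' t-test, averaging the probes of 1 gene, and leaving out each array. Leaving out both control livers 3 and 4 was planned for the liver and was added for the organ and response comparisons after the data were seen.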

Additional observations from a re-analysis of the deposited data

Results flagged for a closer look

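Of 46 groups of 4 arrays examined, over the member and Hamp2 probes detected in them, 2 held an array far from the other 3, where chance alone marks about 1 in 20. Control liver 2 had Slc40a1 at 12.30, against 12.60 to 12.61 on the other control livers. OPP spleen 3 had Aco1 at 7.17, against 6.68 to 6.71 on the other OPP spleens. The low Hamp values of control livers 3 and 4 were not marked, at a gap below the limit.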

How the results depend on the processing

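The counts of members past the adjusted threshold kept within 1.5 times of the reported ones in every setting run. They were 0 in liver, spleen and the liver against spleen response throughout, 5 to 9 for liver against heart, 8 for liver against spleen and 7 to 9 for heart against spleen. The heart Tfrc difference ranged from -1.64 to -1.22. It was -1.57 with median scaling and -1.52 on the authors' values, and -1.64 to -1.27 with 1 array left out. The count of 8 under median scaling shared 7 genes with the reported one, with Aco1 lost and Fth1 gained, and the 5 for liver against heart lacked Ftl1 and Aco1. Median scaling put the median of all probes at -0.70 for liver against heart and -0.57 for liver against spleen, where quantile normalisation gave -0.20 and -0.14, and the share of higher probes among those called at 25.97% and 31.4% in place of 42.3% and 44.97%. In the heart under OPP this share at an unadjusted p of 0.01 was 2.73% in place of 41.4%, and in the spleen 94.0% in place of 69.0%. Ftl1 in liver against heart turned from 0.63 to -0.016 (adjusted p = 0.934), and the cause was not tested. At an unadjusted p of 0.01 median scaling called 25 liver probes in place of 188 and 1061 heart probes in place of 423. At the adjusted threshold, where 0 probes passed as reported in any organ, it called 0 liver, 15 spleen and 554 heart probes. There 1 fit of all organs called 384 liver, 18 spleen and 1 heart probes. The methods' t-test called 157 liver, 106 spleen and 315 heart probes at that threshold, 0 of each after the Benjamini-Hochberg adjustment, and 0 members in liver and spleen.

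Without control livers 3 and 4, 4 of 8 liver members and 4 of 9 liver against spleen responses changed sign, none of them past the threshold. Hamp in the liver was -0.35 and Tfrc 0.15, and without control liver 3 alone they were 0.68 and -0.28. Without control liver 3, Tfrc and Hamp passed between liver and heart (adjusted p = 0.0257 and 0.0101). Fth1 passed between heart and spleen without control liver 3, control spleen 2 or control heart 2 (adjusted p = 0.0286, 0.0185 and 0.0381). Arrays with the same replicate number did not deviate together in every pair (correlations 0.024 to 0.071 in liver, -0.29 to 0.32 in spleen and 0.012 to 0.45 in heart). Of the OPP arrays with a control of the same number, 1 of 3 livers, 2 of 4 spleens and 2 of 4 hearts correlated best with it. With the replicate block the counts were 0 in liver, spleen and the response of liver against spleen, and 7, 8 and 7 between organs, with heart Tfrc at -1.44. The authors' values could not be used between organs and that alternative was not run.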
